A study of Homo sapiens with 12 samples.

Results

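Auxins are plant hormones built on an indole ring, and indole compounds include ligands of the human aryl hydrocarbon receptor. The genes described here are the receptor AHR, its partner ARNT, the feedback genes AHRR and TIPARP, and the enzymes CYP1A1, CYP1B1 and ALDH3A1. They were chosen by symbol through the Ensembl identifiers of the count table, and the 7 genes matched 7 of its 63241 rows. All 7 had enough reads to be tested, among 23593 genes tested in all.

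RNA was measured in HCT116, a human colorectal carcinoma line, in 4 groups of 3 libraries. The first group was the POLR1A-AID1 line, in which a degron is fused to the largest subunit of RNA polymerase I, so that the protein is degraded when an auxin is present. These cells had 500 µM indole-3-acetic acid (IAA), preceded by 24 h with 1 µg/ml doxycycline, which switches on the plant auxin receptor OsTIR1. The second was the POLR2A-AID2 line, whose degron sits on the largest subunit of RNA polymerase II, given 1 µM 5-PH-IAA, an indole-3-acetic acid with an added phenyl group. Wild-type HCT116 received actinomycin D, which binds DNA and blocks transcription, at 5 µg/mL in the third group and DMSO, the solvent, in the fourth. Auxin and DMSO lasted 8 h and actinomycin D 6 h by the sample titles, but the protocol for extraction names 6 h for all. The 3 dishes of a group were treated on the same day and are called technical replicates, so p-values measure the spread between dishes. Each degron group was compared with wild-type cells in DMSO, so the line, the ligand, its dose, the lost polymerase and, for POLR1A-AID1, doxycycline cannot be told apart. Whether either auxin bound the receptor was not measured.

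In the absence of a ligand the receptor is held in the cytoplasm by HSP90 and the co-chaperone p23. Ligand binding sends it to the nucleus, where it pairs with ARNT and binds xenobiotic response elements whose core reads GCGTG. CYP1A1 and CYP1B1, monooxygenases of polycyclic aromatic compounds, are its best known targets. AHRR and TIPARP are targets as well and limit the response: AHRR competes for ARNT, and TIPARP is an ADP-ribosyltransferase that acts on the receptor. ARNT is also the partner of the hypoxia-inducible factors.

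Promoters are shown for genes of this set that were higher in the POLR1A-AID1 libraries and hold the core motif near their start. The windows run from 250 bases before to 50 bases after a RefSeq start on GRCh38.p14, and capitals mark GCGTG, or CACGC where the motif lies on the other strand. The CYP1A1 window is chr15:74725479-74725778 on the minus strand, the TIPARP window, the first of 3 and the one with the motif, is chr3:156674340-156674639 on the plus strand, and those of AHRR are chr5:321464-321763 and chr5:322360-322659 on the plus strand.
CYP1A1: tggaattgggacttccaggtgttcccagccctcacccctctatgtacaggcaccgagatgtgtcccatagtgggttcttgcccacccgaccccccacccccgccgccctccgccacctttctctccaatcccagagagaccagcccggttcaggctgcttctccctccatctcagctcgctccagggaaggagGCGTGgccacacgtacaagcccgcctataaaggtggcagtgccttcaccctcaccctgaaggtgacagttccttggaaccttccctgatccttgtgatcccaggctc
TIPARP: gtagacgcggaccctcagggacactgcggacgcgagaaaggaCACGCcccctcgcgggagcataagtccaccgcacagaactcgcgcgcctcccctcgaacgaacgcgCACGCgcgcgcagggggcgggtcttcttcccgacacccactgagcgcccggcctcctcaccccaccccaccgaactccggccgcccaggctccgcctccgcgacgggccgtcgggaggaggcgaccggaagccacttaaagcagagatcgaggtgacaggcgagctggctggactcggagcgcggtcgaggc
AHRR window 1: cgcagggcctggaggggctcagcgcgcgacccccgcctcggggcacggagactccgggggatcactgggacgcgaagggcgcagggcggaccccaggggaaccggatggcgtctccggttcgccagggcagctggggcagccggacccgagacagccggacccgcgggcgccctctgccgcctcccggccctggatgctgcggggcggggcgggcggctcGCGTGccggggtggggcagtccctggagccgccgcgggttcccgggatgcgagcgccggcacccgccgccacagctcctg
AHRR window 2: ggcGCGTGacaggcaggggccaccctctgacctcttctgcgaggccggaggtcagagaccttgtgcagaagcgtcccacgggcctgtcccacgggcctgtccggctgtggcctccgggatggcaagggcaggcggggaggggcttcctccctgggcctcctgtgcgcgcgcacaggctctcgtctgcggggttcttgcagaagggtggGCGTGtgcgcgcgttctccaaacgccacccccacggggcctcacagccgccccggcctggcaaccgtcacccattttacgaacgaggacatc

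The motif began 57 bases before the start in CYP1A1, 208 and 142 bases before the first start of TIPARP, whose other 2 windows did not hold it, 30 bases before the start in the first AHRR window, and 247 and 42 bases before it in the second. RefSeq windows were found for 5 of the 7 genes, 8 windows in all, and not for CYP1B1 and ALDH3A1. GCGTG, searched on both strands, was in 5 of the 8 windows and in 4 of the 5 genes; 36.5% of 35116 windows of the same length hold it. The AHR window held it 37 bases past the start, and the ARNT window did not hold it. The longer form TNGCGTG was in 1 window, the first of AHRR, against 5.51% of all windows. GCGTG is also a core of the hypoxia response element, so a match names no factor.

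Library totals ran from 18797087 to 21802364 estimated counts in the POLR1A-AID1 libraries, 11289272 to 15037531 in the POLR2A-AID2 libraries, 20302228 to 27394059 with actinomycin D and 12235119 to 17535790 with DMSO. Mitochondrially encoded mRNAs made up 5.58% to 5.98% of counts in POLR1A-AID1 and 8.68% to 10.4% in POLR2A-AID2. Their share was 3.42% to 3.54% with actinomycin D and 6.06% to 8.17% with DMSO. Because this share differs between groups, scaling to it shifts all genes of a group together. Which scale is nearer to amounts per cell was not tested. The degrons act on protein, so mRNA of the targeted genes is no check of the labels: against DMSO, POLR1A had a log2 fold change of -0.69 in POLR1A-AID1 (adjusted p = 2.03e-09) and POLR2A one of 1.09 in POLR2A-AID2 (adjusted p = 1.46e-12). The summed level of 7 epithelial markers was 1923 to 2060 CPM in the POLR1A-AID1 libraries, 2353 to 2562 CPM in POLR2A-AID2, 3201 to 3478 CPM with actinomycin D and 3512 to 3974 CPM with DMSO; the keratins KRT8, KRT18 and KRT19 led it, and the intestinal gene VIL1 averaged 1.00 CPM in DMSO. CPM here are counts relative to library size after TMM scaling. Rises and falls in this report are therefore changes of a share, and amounts of RNA per cell were not measured. Where transcription is blocked, a higher share does not show new transcription. In bulk RNA, fewer cells of a type and less RNA per cell cannot be told apart.

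The receptor itself was not called between POLR1A-AID1 and DMSO cells unless libraries were scaled to mitochondrially encoded mRNAs, and it fell in POLR2A-AID2. AHR (ENSG00000106546, chr7:16916359-17346152, plus strand) stood at 75.1, 67.2 and 71.7 CPM in the POLR1A-AID1 libraries, 51.7, 51.2 and 55.4 CPM in POLR2A-AID2, 62.2, 64.7 and 67.9 CPM with actinomycin D and 65.5, 74.7 and 72.0 CPM with DMSO. The POLR2A-AID2 libraries all lay below the DMSO ones, and the other groups overlapped them. The log2 fold change of AHR in POLR1A-AID1 was 0.01 (95% interval -0.12 to 0.14, adjusted p = 0.936), and 0.37 (adjusted p = 0.0373) under mitochondrial scaling. AHR fell in POLR2A-AID2, by 0.43 on the log2 scale (SE 0.07, adjusted p = 8.62e-06). With actinomycin D its log2 fold change was -0.13 (SE 0.06, adjusted p = 0.104); it passed at -0.17 without the first DMSO library (adjusted p = 0.0453) or with only the 6 libraries compared (adjusted p = 0.032), and at -0.24 with library totals as the scale (adjusted p = 0.00179). Mitochondrial scaling turned it to 0.80 (adjusted p = 1.36e-06).

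ARNT (ENSG00000143437, chr1:150809705-150876768, minus strand) stood at 68.7, 62.4 and 73.2 CPM in the POLR1A-AID1 libraries, 24.1, 25.3 and 24.0 CPM in POLR2A-AID2, 56.6, 61.1 and 58.9 CPM with actinomycin D and 31.1, 36.3 and 34.6 CPM with DMSO. No group overlapped the DMSO libraries. ARNT rose in POLR1A-AID1, with a log2 fold change of 1.00 (SE 0.07, adjusted p = 3.15e-10), and with actinomycin D, with one of 0.79 (SE 0.07, adjusted p = 5.48e-09). It fell by 0.48 in POLR2A-AID2 (SE 0.08, adjusted p = 2.29e-05).

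Both feedback genes rose in the POLR1A-AID1 cells and fell in the other treatments, except that AHRR with actinomycin D did not fall when libraries were scaled to mitochondrially encoded mRNAs. AHRR (ENSG00000063438, chr5:304176-438291, plus strand), the receptor repressor, stood at 38.6, 44.7 and 44.6 CPM in the POLR1A-AID1 libraries, 9.99, 10.5 and 12.5 CPM in POLR2A-AID2, 10.2, 13.1 and 8.13 CPM with actinomycin D and 17.0, 21.8 and 18.8 CPM with DMSO. Every POLR1A-AID1 library was above every DMSO library, and every library of the other treatments was below. AHRR rose 2.21-fold in POLR1A-AID1, a log2 fold change of 1.15 (SE 0.14, adjusted p = 2.82e-06). It fell by 0.82 in POLR2A-AID2 (SE 0.15, adjusted p = 0.000203) and by 0.87 with actinomycin D (SE 0.15, adjusted p = 8.16e-05), the last turning to 0.053 (adjusted p = 0.827) under mitochondrial scaling.

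TIPARP (ENSG00000163659, chr3:156673235-156706770, plus strand) gave the widest range of the set. Its level was 225, 202 and 211 CPM in the POLR1A-AID1 libraries, 86.4, 76.0 and 79.4 CPM in POLR2A-AID2, 10.4, 13.4 and 11.2 CPM with actinomycin D and 101, 102 and 108 CPM with DMSO. No group overlapped another. TIPARP rose 2.06-fold in POLR1A-AID1, a log2 fold change of 1.04 (SE 0.07, adjusted p = 4.2e-11), and fell by 0.36 in POLR2A-AID2 (SE 0.07, adjusted p = 0.000106). With actinomycin D it fell to 11.7 ± 1.53 CPM, against 104 ± 3.76 CPM in DMSO (SD, n = 3 each), a log2 fold change of -3.14 (SE 0.08, adjusted p = 3.97e-18).

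**Figure D1:**
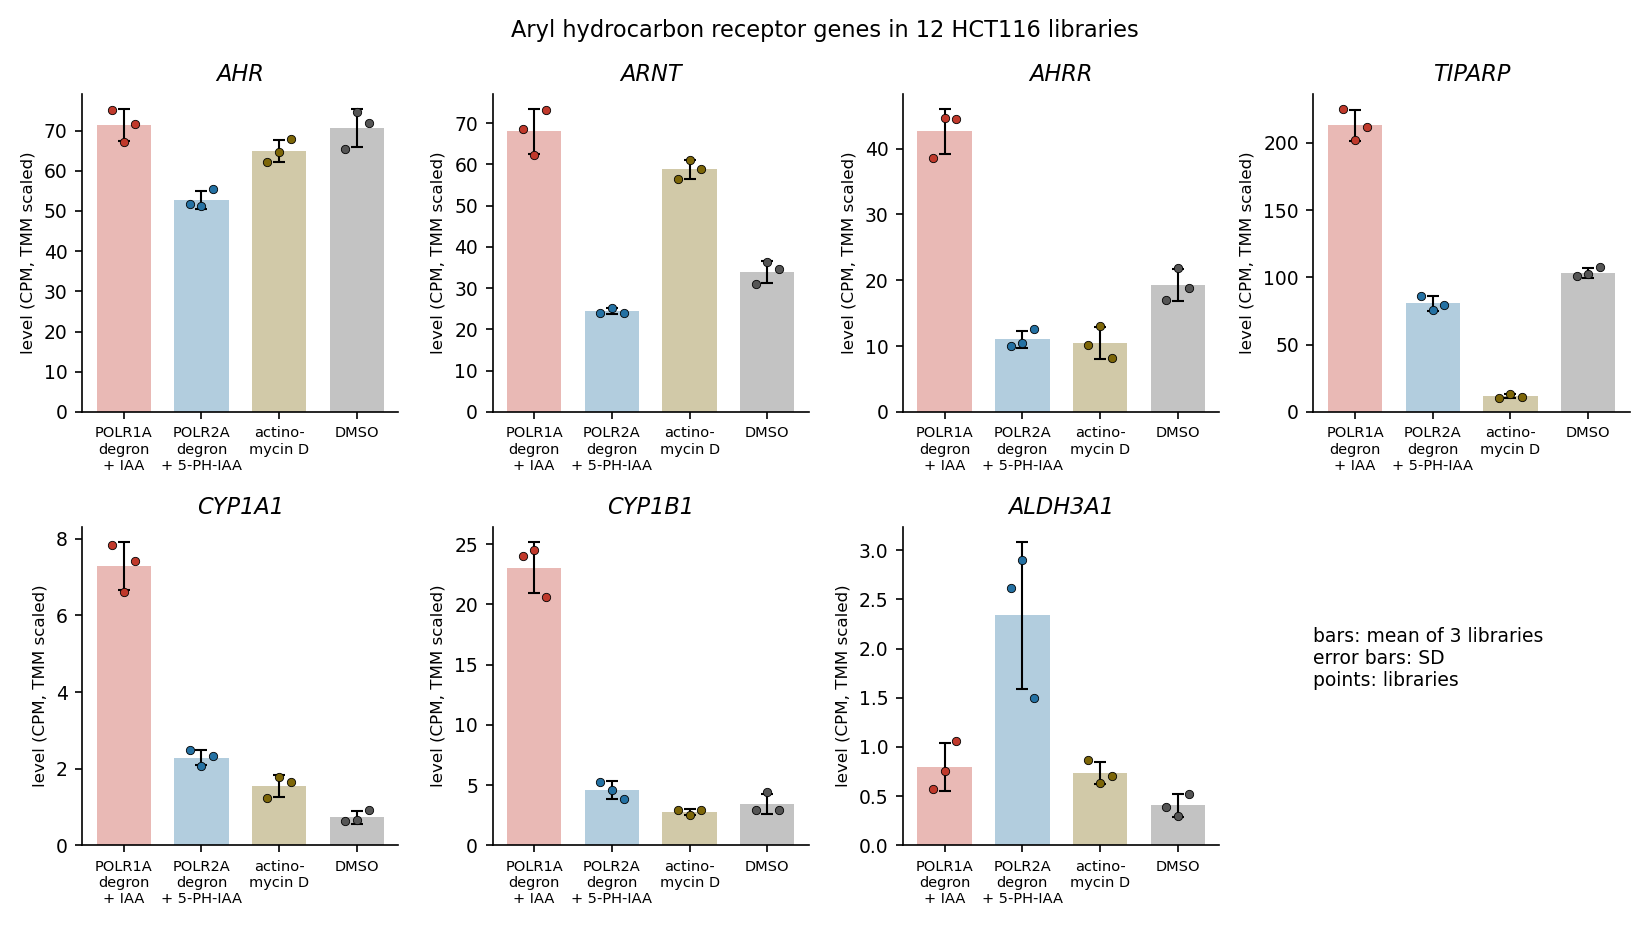
Level of each of the 7 genes in CPM after TMM scaling (vertical axes, each from 0) in the POLR1A-AID1 libraries with IAA, the POLR2A-AID2 libraries with 5-PH-IAA, the actinomycin D libraries and the DMSO libraries; bars are means of 3 libraries, error bars SD and points libraries. CYP1A1 averaged 7.29 CPM in POLR1A-AID1 against 0.739 CPM in DMSO, AHR levels lay between 51.2 and 75.1 CPM in all 12 libraries, and ALDH3A1 was highest in POLR2A-AID2.

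The CYP1 enzymes had the largest increases of the set in the POLR1A-AID1 cells. CYP1A1 (ENSG00000140465, chr15:74719542-74725610, minus strand) stood at 7.83, 6.61 and 7.42 CPM in the POLR1A-AID1 libraries, 2.48, 2.07 and 2.32 CPM in POLR2A-AID2, 1.24, 1.79 and 1.64 CPM with actinomycin D and 0.625, 0.659 and 0.935 CPM with DMSO. The 4 groups did not overlap. The estimated counts behind these levels were 151, 148 and 161 in POLR1A-AID1, 37, 35 and 28 in POLR2A-AID2, 23, 45 and 35 with actinomycin D and 8, 11 and 16 with DMSO. CYP1A1 rose in every treatment: 9.67-fold in POLR1A-AID1 (log2 3.27, SE 0.26, adjusted p = 1.13e-09), 3.04-fold in POLR2A-AID2 (log2 1.61, SE 0.28, adjusted p = 3.79e-05) and 2.09-fold with actinomycin D (log2 1.06, SE 0.28, adjusted p = 0.00263). These rises differ in rank among the 23593 genes of each comparison: CYP1A1 had the 200th highest log2 fold change in POLR1A-AID1, the 1493rd highest with actinomycin D and the 4235th highest in POLR2A-AID2.

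CYP1B1 (ENSG00000138061, chr2:38066973-38109902, minus strand), which also oxidises estradiol, stood at 24.0, 24.5 and 20.6 CPM in the POLR1A-AID1 libraries, 5.29, 4.62 and 3.81 CPM in POLR2A-AID2, 2.91, 2.51 and 2.96 CPM with actinomycin D and 2.97, 4.44 and 2.92 CPM with DMSO. The POLR1A-AID1 libraries stood apart, and the other groups overlapped the DMSO libraries. CYP1B1 rose 6.65-fold in POLR1A-AID1 (log2 2.73, SE 0.17, adjusted p = 2.01e-11), the 295th highest log2 fold change. In POLR2A-AID2 the log2 fold change was 0.41 (95% interval 0.02 to 0.80, adjusted p = 0.0609), and it passed the threshold without the third POLR2A-AID2 library (0.50, adjusted p = 0.0348) or without the second DMSO library (0.63, adjusted p = 0.00881), with RLE factors, which are DESeq2's size factors (0.46, adjusted p = 0.04), and with library totals (0.54, adjusted p = 0.0151). With actinomycin D it was -0.31 (95% interval -0.71 to 0.08, adjusted p = 0.172), and 0.63 (adjusted p = 0.0224) under mitochondrial scaling.

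ALDH3A1 (ENSG00000108602, chr17:19737984-19748943, minus strand), an aldehyde dehydrogenase of the cornea that dioxin induces in rat liver, had another pattern: it was highest in POLR2A-AID2. Its level was 0.571, 0.759 and 1.06 CPM in the POLR1A-AID1 libraries, 2.61, 2.90 and 1.49 CPM in POLR2A-AID2, 0.863, 0.637 and 0.705 CPM with actinomycin D and 0.390, 0.300 and 0.526 CPM with DMSO, from 51, 106, 47 and 19 counts summed over each group. All treated libraries were above all DMSO libraries. ALDH3A1 rose 5.71-fold in POLR2A-AID2 (log2 2.51, SE 0.43, adjusted p = 3.61e-05). The log2 fold change was 0.96 in POLR1A-AID1 (95% interval 0.03 to 1.90, adjusted p = 0.0987) and 0.84 with actinomycin D (SE 0.45, adjusted p = 0.129), and both passed the threshold under mitochondrial scaling, at 1.34 (adjusted p = 0.0414) and 1.78 (adjusted p = 0.00295).

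Many genes as weak as ALDH3A1 were called higher in POLR2A-AID2, at a share not far from that of all genes. With all genes tested cut into 5 equal bins by average level, in bin 2 from the bottom, where ALDH3A1 lies, 38.4% of 4719 were called higher in POLR2A-AID2, and in bin 3, where CYP1A1 and CYP1B1 lie, 33.1% of 4718, against 33.2% of all genes. Weak genes that are high only in POLR2A-AID2 are tested because of that group, so these shares are in part set by the filter. Summed levels of markers of other cell types were higher there too: 4 blood markers came to 2.13 to 2.99 CPM in POLR2A-AID2, against 0.117 to 0.420 CPM in DMSO, where CD3E was at 0, and 3 liver markers to 4.80 to 5.96 CPM, against 0 to 0.0584 CPM, where ALB and TTR were at 0. Their part in these rises was not tested. In POLR1A-AID1 the same sums were 0.134 to 0.415 CPM for blood and 0 to 0.179 CPM for liver, and 21.0% of bin 3 were called higher. The 5 stromal and endothelial markers summed to 21.8 to 23.4 CPM in POLR1A-AID1, 20.0 to 25.1 CPM in POLR2A-AID2 and 7.91 to 8.64 CPM in DMSO, and the largest share was COL1A1, at 22.1 CPM in POLR1A-AID1 against 7.46 CPM in DMSO. In POLR2A-AID2 COL1A1 averaged 14.1 CPM and PECAM1 7.92 CPM, the latter against 0.163 CPM in DMSO and 0.202 CPM in POLR1A-AID1. PDGFRB and VWF were not higher in POLR2A-AID2 than in DMSO.

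**Figure D2:**
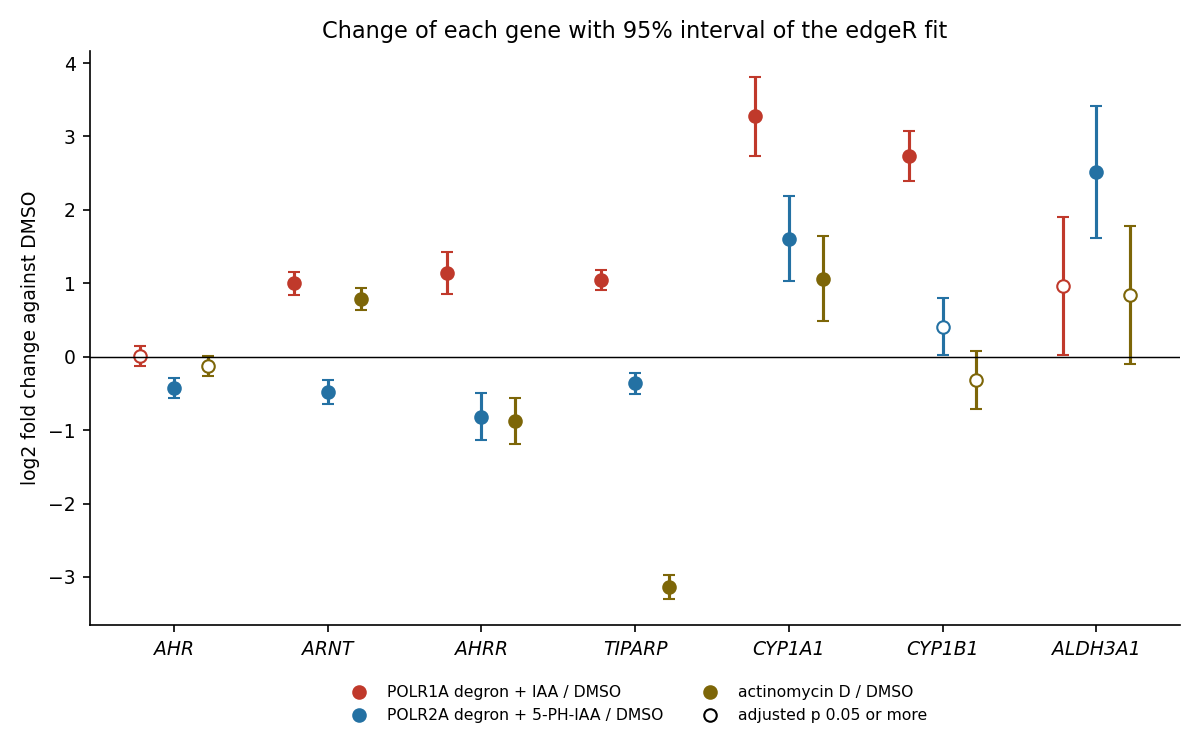
Log2 fold change against DMSO (vertical axis) of each gene (horizontal axis) in POLR1A-AID1 with IAA, POLR2A-AID2 with 5-PH-IAA and actinomycin D, with the 95% interval of the edgeR fit over 12 libraries; open circles mark an adjusted p of 0.05 or more. CYP1A1 lies above 0 in all 3 comparisons, from 1.06 to 3.27, while TIPARP runs from -3.14 with actinomycin D to 1.04 in POLR1A-AID1; AHRR, at -0.87 with actinomycin D, was at 0.053 under mitochondrial scaling.

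Read as a set against DMSO, 5 of the 7 genes were called higher and 0 lower in POLR1A-AID1; of all genes tested, 20.6% were called higher and 18.6% lower. Their median log2 fold change was 1.04, against 0.01 over all genes. In POLR2A-AID2, 2 were called higher, where 33.2% of all genes were, and 4 lower, where 28.2% were, with a median of -0.36 against 0.08. With actinomycin D, 2 were called higher and 2 lower, where 24.9% and 28.5% of all genes were, with a median of -0.13 against -0.06. By average level AHR, ARNT and TIPARP lie in bin 5 and AHRR in bin 4. These 4 were the genes called lower in POLR2A-AID2, where 53.1% of bin 5 and 49.8% of bin 4 were. In POLR1A-AID1 37.6% of bin 5 and 32.9% of bin 4 were called higher. With actinomycin D 55.3% of bin 5 were called higher and 28.9% lower. Under mitochondrial scaling the medians of all genes shifted to 0.37, -0.20 and 0.82 in these comparisons, and the genes of the set called higher and lower became 7 and 0 in POLR1A-AID1, 2 and 4 in POLR2A-AID2, and 5 and 1 with actinomycin D. AHRR, TIPARP, CYP1A1 and CYP1B1 were called and at least 2-fold higher in POLR1A-AID1, a rule that 4.94% of all genes met. The libraries of a treatment and of DMSO did not overlap for 6 of the 7 genes in POLR1A-AID1, 6 in POLR2A-AID2 and 5 with actinomycin D, where 48%, 65.2% and 58.1% of all genes did not. The 3 comparisons share the DMSO libraries.

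**Figure D3:**
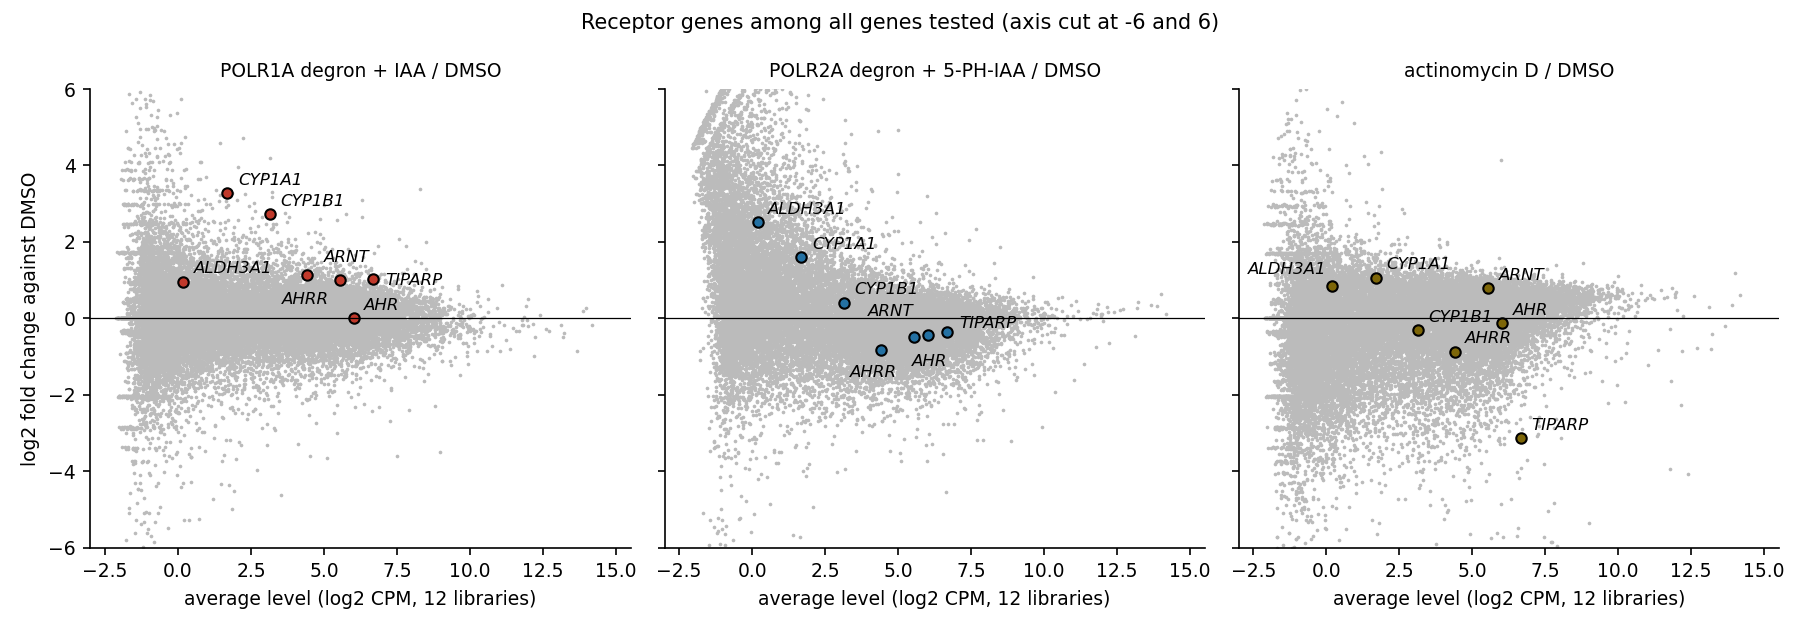
Log2 fold change against DMSO (vertical axis, shown from -6 to 6) over average level in log2 CPM (horizontal axis) for the genes tested (grey) and the 7 receptor genes (coloured), in POLR1A-AID1, POLR2A-AID2 and actinomycin D cells. CYP1A1 and CYP1B1, at 3.27 and 2.73, lie above most genes of their level in POLR1A-AID1, while in POLR2A-AID2 CYP1A1, at 1.61, lies within a broad spread of weak genes.

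Set directly against each other, the degron groups differed in all 7 genes, 6 higher and 1 lower in POLR1A-AID1, and their libraries did not overlap in any of them. CYP1B1 was 2.32 higher on the log2 scale in POLR1A-AID1 than in POLR2A-AID2 (adjusted p = 6.46e-11), AHRR 1.96 higher (adjusted p = 4.87e-09), CYP1A1 1.67 higher (adjusted p = 1.69e-06) and ARNT 1.47 higher (adjusted p = 4.84e-13). TIPARP was 1.40 higher (adjusted p = 2.03e-13) and AHR 0.44 higher (adjusted p = 5.22e-06). ALDH3A1 went the other way, with a log2 difference of -1.55 (adjusted p = 0.00157), which did not pass under mitochondrial scaling (-0.93, adjusted p = 0.0745). Of all genes, 29.1% were called higher and 33.2% lower in this comparison, and 68.5% did not overlap. In bin 5, which holds AHR, ARNT and TIPARP, 55.6% were called higher, and in bin 4, which holds AHRR, 51.9%. IAA at 500 µM and 5-PH-IAA at 1 µM were each given to 1 line only, so these values stand side by side and compare no compounds.

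Between POLR1A-AID1 and actinomycin D cells 5 genes were called higher and 0 lower, where 31.8% and 24.4% of all genes were, and 5 did not overlap, as 63.3% of all genes did not. The differences on the log2 scale were 4.18 for TIPARP (adjusted p = 2.62e-20), 3.05 for CYP1B1 (adjusted p = 6.64e-13), 2.21 for CYP1A1 (adjusted p = 2.53e-08), 2.02 for AHRR (adjusted p = 1.64e-09) and 0.21 for ARNT (adjusted p = 0.013). That of ARNT did not pass without the first actinomycin D library (0.17, adjusted p = 0.0755) or the third POLR1A-AID1 library (0.15, adjusted p = 0.114), nor with RLE factors (0.14, adjusted p = 0.0942), DESeq2 (0.14, adjusted p = 0.141) or no filter on low counts (0.11, adjusted p = 0.355). Under mitochondrial scaling ARNT was called lower, at -0.35 (adjusted p = 0.0375). AHR and ALDH3A1, both at 0.13, did not pass (adjusted p = 0.0731 and 0.815), and AHR did so without the second POLR1A-AID1 library (0.17, adjusted p = 0.0493) and with library totals (0.30, adjusted p = 0.000202); mitochondrial scaling turned them to -0.43 and -0.44 (adjusted p = 0.00949 and 0.462).

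Loss of POLR2A and actinomycin D are both used to block transcription of mRNA genes. Between POLR2A-AID2 and actinomycin D cells 3 genes were called higher and 2 lower, where 39.8% and 31.1% of all genes were, and 6 did not overlap, as 74.3% of all genes did not. The 2 called lower, AHR and ARNT, lie in bin 5, where 71.8% of genes were called lower. TIPARP was 2.78 higher on the log2 scale (adjusted p = 3.67e-17), ALDH3A1 1.68 higher (adjusted p = 0.000681) and CYP1B1 0.72 higher (adjusted p = 0.00139), the last turning to -0.49 under mitochondrial scaling. ARNT had a log2 difference of -1.27 (adjusted p = 4.31e-12) and AHR one of -0.30 (adjusted p = 0.000296), which was -0.06 (adjusted p = 0.395) with library totals as the scale. AHRR, at 0.05 (adjusted p = 0.77), and CYP1A1, at 0.54 (95% interval 0.03 to 1.05, adjusted p = 0.0525), did not pass; CYP1A1 did with library totals (0.78, adjusted p = 0.00819) and RLE factors (0.55, adjusted p = 0.0471), and mitochondrial scaling turned them to -1.14 and -0.66 (adjusted p = 5.6e-08 and 0.0593).

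Levels of different genes were compared per kilobase of annotated exon. TIPARP was the most abundant in POLR1A-AID1, at 42.2 CPM per kb, in POLR2A-AID2, at 16.0, and in DMSO, at 20.5, and stood below ARNT, at 9.03, and AHR, at 8.04, with actinomycin D, at 2.31. ARNT stood above AHR in POLR1A-AID1, at 10.4 against 8.83 CPM per kb, and below it in DMSO, at 5.22 against 8.75. CYP1A1 reached 2.12 CPM per kb in POLR1A-AID1 and 0.215 in DMSO, and CYP1B1 3.83 and 0.572. ALDH3A1 was last in all 4 groups, at 0.203, 0.596, 0.188 and 0.103 CPM per kb in POLR1A-AID1, POLR2A-AID2, actinomycin D and DMSO. Neighbours in this order overlapped between libraries only for CYP1B1, CYP1A1 and ALDH3A1 in POLR2A-AID2 and for CYP1B1 and CYP1A1 with actinomycin D.

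Of 13 genes of the receptor complex and its partners, 9 rose and 0 fell in POLR1A-AID1 (median log2 0.20), 2 rose and 7 fell in POLR2A-AID2 (median -0.27), and 9 rose and 2 fell with actinomycin D (median 0.44). For this and the next lists, the shares of all genes called higher and lower were 20.6% and 18.6% in POLR1A-AID1, 33.2% and 28.2% in POLR2A-AID2, and 24.9% and 28.5% with actinomycin D. Of the 13 genes, 8 lie in bin 5 by average level, the most abundant, where 37.6% of genes were called higher in POLR1A-AID1, 53.1% lower in POLR2A-AID2 and 55.3% higher with actinomycin D, so the POLR2A-AID2 count of 7 is close to that share. In POLR1A-AID1, EPAS1, the hypoxia-inducible factor 2 alpha that pairs with ARNT, rose by 1.24, and the coactivators NCOA1 and NCOA3 by 0.79 and 0.70. In POLR2A-AID2, ARNT2, the ARNT paralog, had a log2 fold change of -1.96, the corepressor NRIP1 one of -1.83 and the coactivator NCOA2 one of -0.90. NRIP1 fell by 1.86 with actinomycin D as well, while EPAS1 rose by 1.14 and the chaperone HSP90AA1 by 0.63.

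Other genes reported as receptor targets were called in both directions. Of 18 listed, 14 were tested. In POLR1A-AID1 3 rose and 6 fell (median log2 0.02): PTGS2, the inducible cyclooxygenase, rose by 2.27, to 2.62 ± 0.179 CPM against 0.536 ± 0.171 CPM in DMSO (SD, n = 3 each), while the retinal-oxidising ALDH1A3 fell by 1.28 and the amino acid transporter SLC7A5 by 1.02. NQO1, a quinone reductase used as a receptor and NRF2 target, averaged 226, 327, 576 and 300 CPM in POLR1A-AID1, POLR2A-AID2, actinomycin D and DMSO cells, and fell by 0.41 in POLR1A-AID1 and rose by 0.94 with actinomycin D. These NQO1 changes were not recomputed under other scalings. In POLR2A-AID2 4 rose and 6 fell (median 0.01), led by the glucuronosyltransferase UGT1A6, at 38 counts against 0 in DMSO and so at least 13.5-fold higher (floor of 3 counts summed over DMSO libraries), IL1B (3.24) and PTGS2 (2.60). UGT1A6, at 0.866 CPM, and IL1B, at 1.89 CPM, had enough reads to be tested only through the POLR2A-AID2 libraries. In the other groups they averaged 0.236 CPM or less. A call of higher in POLR2A-AID2 was thus built into their being tested. With actinomycin D 4 rose and 6 fell (median -0.08), with HES1, a Notch-responsive repressor, at -4.01, STC2, a secreted glycoprotein, at -2.17 and PTGS2 at 1.24. Under mitochondrial scaling these targets had 4 called higher and 3 lower in POLR1A-AID1, 3 and 6 in POLR2A-AID2, and 8 and 2 with actinomycin D, where their median turned to 0.83. UGT1A6 shares exons with other UGT1A genes, so its count is uncertain. The lists, like the 7 genes, are not independent of earlier results on these data, and their counts carry no test.

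Targets of the hypoxia-inducible factors, which share ARNT with the receptor, were called lower more often than higher, though in POLR1A-AID1 and actinomycin D cells not when libraries were scaled to mitochondrially encoded mRNAs. Of 14 genes, 2 rose and 8 fell in POLR1A-AID1 (median log2 -0.26), 2 and 8 in POLR2A-AID2 (median -0.42), and 3 and 9 with actinomycin D (median -0.38). Among all genes 18.6%, 28.2% and 28.5% were called lower in these comparisons, and in bin 5, which holds 7 of the 14, 32.5%, 53.1% and 28.9%. In bin 4, which holds 4 of the 14, 49.8% were called lower in POLR2A-AID2. The POLR2A-AID2 count of 8 is thus close to the shares of bins 4 and 5. In POLR1A-AID1, where ARNT and EPAS1 rose, the pyruvate dehydrogenase kinase PDK1 fell by 1.45, ANKRD37 by 1.23 and the glucose transporter SLC2A1 by 1.00. In POLR2A-AID2 SLC2A1 fell by 3.17 and VEGFA by 1.67, and CA9, a carbonic anhydrase, rose by 3.18 at a mean of 1.01 CPM against 0.0989 CPM in DMSO. CA9 had enough reads to be tested only through the POLR2A-AID2 libraries, so its rise there was built into its being tested. The angiogenic peptide ADM fell by 3.68 with actinomycin D, ANKRD37 by 1.99 and VEGFA by 1.70. Under mitochondrial scaling the hypoxia median turned to 0.09 in POLR1A-AID1, with 3 called higher and 2 lower, and to 0.54 with actinomycin D, with 7 higher and 3 lower, and stayed below 0 in POLR2A-AID2, at -0.70, with 1 higher and 10 lower. ANKRD37 in POLR1A-AID1 then lost its call.

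NRF2 targets, which respond to oxidative and electrophilic stress, were called in both directions: 6 of 13 rose and 5 fell in POLR1A-AID1, 6 and 4 did in POLR2A-AID2, and 5 and 6 with actinomycin D. Of the 13, 9 lie in bin 5, where 37.6% of genes were called higher and 32.5% lower in POLR1A-AID1, 22.9% and 53.1% in POLR2A-AID2, and 55.3% and 28.9% with actinomycin D. In POLR1A-AID1 the aldo-keto reductase AKR1B10 rose by 2.86, to a mean of 0.979 CPM against 0.131 CPM in DMSO, the cystine transporter SLC7A11 by 1.71 and OSGIN1 by 1.34. AKR1B10 had enough reads to be tested only through libraries of the degron lines, so its rises there were in part set by the filter. In POLR2A-AID2 AKR1B10 rose by 2.22 and AKR1C1 by 1.66, and the glutathione synthesis subunit GCLC fell by 1.76. AKR1C1 had enough reads to be tested only through the POLR2A-AID2 libraries, so its rise there was built into its being tested. With actinomycin D OSGIN1 fell by 2.38 and the heme oxygenase HMOX1 by 1.80. Under mitochondrial scaling the NRF2 median was 0.41 in POLR1A-AID1, -0.15 in POLR2A-AID2 and 0.87 with actinomycin D, against 0.06, 0.13 and -0.03 under TMM. The genes called higher and lower then became 7 and 1, 1 and 4, and 6 and 2, and AKR1C1 in POLR2A-AID2 lost its call.

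**Figure D4:**
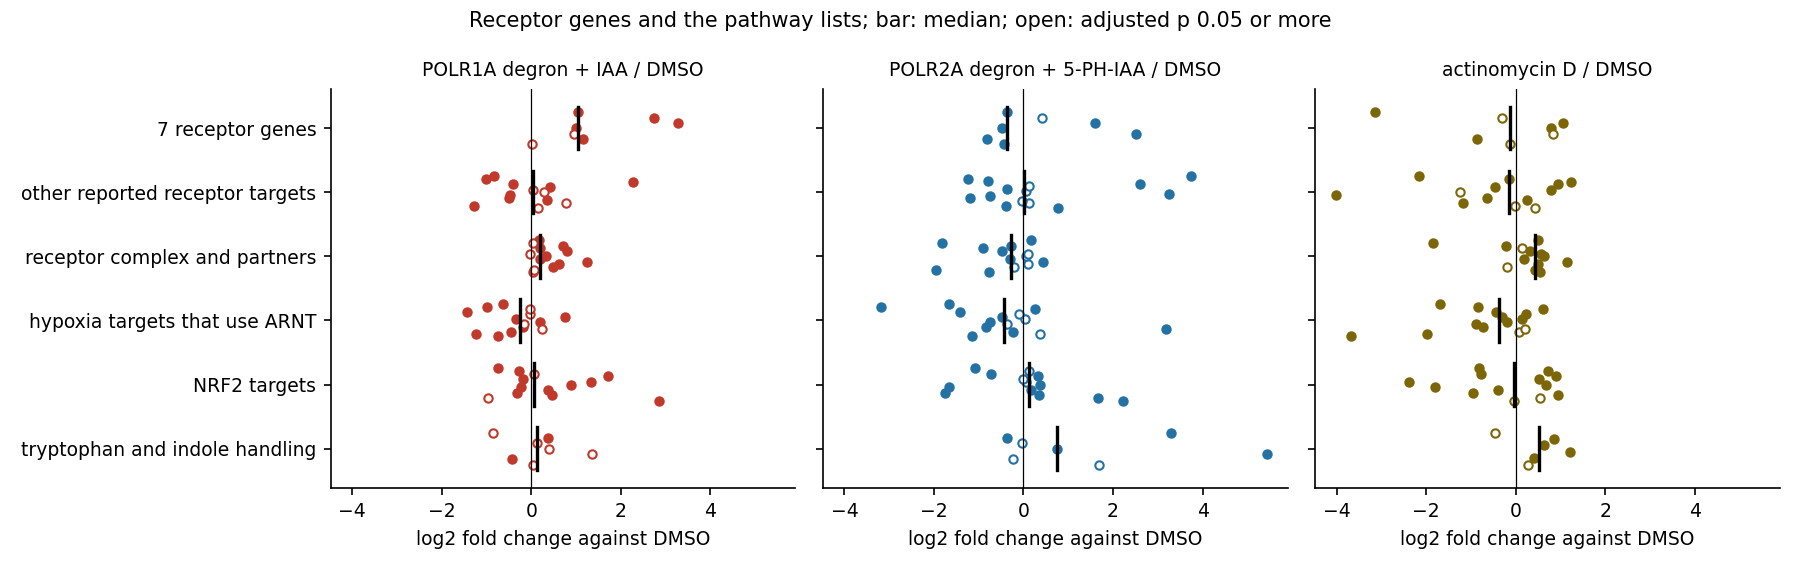
Log2 fold change against DMSO (horizontal axis) of the 7 receptor genes and of the tested members of 5 pathway lists (rows) in POLR1A-AID1, POLR2A-AID2 and actinomycin D cells; points are genes, bars medians, open points an adjusted p of 0.05 or more, with genes of 3 or fewer DMSO counts at their bound or count ratio. The receptor genes have a median of 1.04 in POLR1A-AID1, where the medians of the lists run from -0.26 to 0.20; under mitochondrial scaling the hypoxia medians in POLR1A-AID1 and actinomycin D cells lie above 0.

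Across the 12 libraries, each gene was matched with the genes whose level relative to DMSO was most alike, by root mean square log2 difference. AHR was closest to WDR45B (0.06) and ARNT to ATG9A (0.08). AHRR was closest to NCKAP5L (0.21), TIPARP to ID2 (0.24) and ALDH3A1 to MEIOC (0.31). CYP1A1 was closest to CDKN1A (0.36), the p53-responsive inhibitor of cyclin-dependent kinases, whose log2 fold changes were 3.39 in POLR1A-AID1, 1.44 in POLR2A-AID2 and 0.43 with actinomycin D. CYP1B1 was closest to GRAMD1B (0.37), at 2.48, -0.07 and -0.13 in the same groups, and then to TNFRSF10B (0.38), a death receptor, at 2.07, 0.33 and -0.16. The next matches were TLR1 (0.40) and SMPD1 (0.44) for CYP1A1 and HSPB8 (0.42) for CYP1B1. Whether genes of like profile share a regulator was not tested.

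Some of the genes share sequence or space with others, and the strand setting of the counting is not given in the sources used here, so reads of overlapping genes may be divided wrongly. CYP1A2, the close paralog of CYP1A1, averaged 0.097, 0.312, 0.0422 and 0.052 CPM in POLR1A-AID1, POLR2A-AID2, actinomycin D and DMSO cells, against 7.29, 2.29, 1.56 and 0.739 CPM for CYP1A1. AHRR lies on the strand of PDCD6, a calcium-binding protein gene that overlaps it and fell by 0.39 in POLR1A-AID1 (adjusted p = 5.44e-05), where AHRR rose. CYP1B1-AS1, antisense to CYP1B1, averaged 1.25 CPM in POLR1A-AID1 and 0.958 CPM in DMSO, a log2 fold change of 0.39 (adjusted p = 0.542), against 23.1 and 3.44 CPM for CYP1B1. TIPARP-AS1, which starts beside TIPARP on the other strand, averaged 1.87 CPM in POLR2A-AID2 and 0.407 CPM in DMSO and rose by 2.21 (adjusted p = 0.00177), where TIPARP fell. At AHR the antisense gene AC073332.1 rose by 1.33 in POLR2A-AID2 (adjusted p = 0.00236), to 3.47 CPM against 1.38 CPM in DMSO, where AHR fell. AC019117.2, annotated as protein-coding on the strand of AHR and overlapping it, stood at 0 CPM in POLR1A-AID1, 3.23 to 4.29 CPM in POLR2A-AID2, 0 to 1.29 CPM with actinomycin D and 0 CPM with DMSO, and was called higher in POLR2A-AID2 (adjusted p = 0.0056), where AHR averaged 52.7 CPM. It had enough reads to be tested only through the POLR2A-AID2 libraries, so this call was built into its being tested.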

How the data were processed

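Total RNA libraries of HCT116 cells, depleted of ribosomal RNA and made with a stranded kit per the labels' protocols, were grouped by sample title. The deposited values were the authors' estimated counts per gene, which need not be whole. Per the submitters' processing notes, STAR, RSEM 1.3.3, HTSeq 2.0.2 and the builds GRCh38 and hg38 were used, at steps that the notes do not name; the annotation release and strand setting were not found in the labels. Such estimates divide reads between similar genes. From them, counts were rounded, genes were filtered with filterByExpr (count minimum 10), libraries were scaled by TMM, and edgeR 4.0.16 in R 4.3.3 fitted a quasi-likelihood model with 4 group means over all 12 libraries (8 residual degrees of freedom). Calls needed a p below 0.05 after Benjamini-Hochberg adjustment over 23593 genes, separately in each of 6 comparisons. Levels are mean ± SD of 3 libraries. Gene spans come from GENCODE 29 and promoter windows from RefSeq. The 7 genes and the pathway lists were chosen with earlier results of these data known; each list adds up to 3 called genes with the largest change, and each of the 7 genes up to 3 genes of most similar profile, of which a part is named here. Replicate libraries differed by more than sampling noise, so all 12 were kept. Simulated data were used to test the edgeR step. Alternatives were other scalings (RLE, library totals, mitochondrially encoded mRNAs), no filter, DESeq2 1.42.0, a fit of the compared libraries alone, a replicate block and each library left out. Bounds and ratios of low counts cover counting error only, since reads lacked molecular identifiers and are not independent.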

Additional observations from a re-analysis of the deposited data

How the results depend on the processing

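Each comparison and gene was recomputed under 19 alternatives. Against DMSO, the number of the 7 genes called ran from 5 to 7 in POLR1A-AID1, 6 to 7 in POLR2A-AID2 and 4 to 6 with actinomycin D. All 114 such counts stayed within 1.5 times, but with 7 genes they can move little, and they ignore direction. With actinomycin D, 2 called higher and 2 lower became 5 and 1 under mitochondrial scaling. The rises of ARNT (0.95 to 1.36), AHRR (1.08 to 1.51), TIPARP (0.99 to 1.39), CYP1A1 (3.18 to 3.67) and CYP1B1 (2.62 to 3.12) in POLR1A-AID1 against DMSO kept their call in all 19, as did CYP1A1 (1.35 to 1.80) and ALDH3A1 (2.26 to 2.74) in POLR2A-AID2. Of 798 gene values, 19 changed sign, 18 gained a call and 10 lost one, 4 and 2 of these among those that changed sign; the cause was not tested. AHR in POLR1A-AID1 against DMSO, 0.01, became 0.37 and gained a call (adjusted p = 0.0373) under mitochondrial scaling, was -0.0155 with RLE factors, -0.00413 with no filter and -0.0158 with DESeq2, and ran from -0.0405 to 0.0599 with single libraries left out, below 0 without the first POLR1A-AID1 (-0.0213), the second POLR2A-AID2 or the first DMSO library (-0.0356). Scaling to mitochondrially encoded mRNAs turned AHR (0.80), AHRR (0.053) and CYP1B1 (0.63) with actinomycin D against DMSO, AHR (-0.43), ARNT (-0.35) and ALDH3A1 (-0.44) in POLR1A-AID1 against actinomycin D, and AHRR (-1.14), CYP1A1 (-0.66) and CYP1B1 (-0.49) in POLR2A-AID2 against actinomycin D. The last AHRR value was -0.14 with no filter, ran from -0.12 (without the third actinomycin D library) to 0.23 with single libraries left out, and was -0.063 without the third POLR2A-AID2 library; ALDH3A1 in POLR1A-AID1 against actinomycin D ran from -0.13 (without the third POLR1A-AID1 library) to 0.31. That scaling also moved the share of higher genes among all calls from the 52.6%, 54.1% and 46.7% of TMM to 85.1% in POLR1A-AID1, 38.6% in POLR2A-AID2 and 85.2% with actinomycin D, all against DMSO. Scalings of the pathway lists were added after the data were seen: of 132 values of named list genes 4 lost their call, all under mitochondrial scaling: ANKRD37 and AFMID in POLR1A-AID1, and AKR1C1 and KYAT1 in POLR2A-AID2. The 132 values cover only the up to 3 called genes with the largest change per list and comparison against DMSO. NQO1 was not among them. The replicate numbers shared by the groups do not pair the libraries: over 18 same-numbered pairs the correlation of deviations ran from -0.17 to 0.13, and 3 of 12 libraries correlated best with their own number. With the replicate number as a block the genes called stayed at 5, 6, 4, 7, 5 and 5 in the 6 comparisons, while calls over all genes against DMSO were 8834, 14094 and 12170, against 9231, 14475 and 12601. Depth limits ALDH3A1 and CYP1A1 in DMSO, with 19 and 35 counts over 3 libraries.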

Other observations

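Of 13 listed genes of tryptophan and indole handling, which form and clear endogenous indole ligands of the receptor, 7 were tested. IDO1 was at 0 counts in all 4 groups. IDO2 and TDO2, which also open the tryptophan ring, averaged at most 0.0744 and 0.0474 CPM in any group. In POLR1A-AID1 1 rose, the monoamine oxidase MAOA by 0.37, and 1 fell, the kynurenine formamidase AFMID by 0.43, a call lost under mitochondrial scaling (-0.097, adjusted p = 0.725). In POLR2A-AID2 3 rose and 1 fell. Of all genes 20.6% were called higher and 18.6% lower in POLR1A-AID1, 33.2% and 28.2% in POLR2A-AID2, and 24.9% and 28.5% with actinomycin D. Mitochondrial scaling gave 3 higher and 0 lower in POLR1A-AID1, 2 and 2 in POLR2A-AID2, and 4 and 0 with actinomycin D. KMO, which hydroxylates kynurenine, had 81 counts in the POLR2A-AID2 libraries against 2 in DMSO, a ratio of 43.0 (exact binomial 95% interval 11.5 to 361). KMO had enough reads to be tested only through the POLR2A-AID2 libraries, so its rise there was built into its being tested. TPH1, which starts serotonin synthesis, averaged 12.2 CPM in POLR2A-AID2 against 1.24 CPM in DMSO, a log2 fold change of 3.30 (adjusted p = 1.6e-08), and the kynurenine aminotransferase KYAT1 rose by 0.76, a call lost under mitochondrial scaling (0.46, adjusted p = 0.136). With actinomycin D 4 rose and 0 fell, with KYAT1 at 1.22, MAOA at 0.85 and KYAT3 at 0.62. The POLR2A-AID2 rises of KMO and TPH1 stand beside those of the blood and liver markers, and the part of those markers in them was not tested.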
